A study of Mus musculus with 8 samples.

Results

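Lin28a, Lin28b, Trim71, Hmga1, Hmga2, Igf2bp1, Myc and Mycn are growth regulators of early embryonic cells, and their mRNA levels were followed in wild type and Pcgf5-/- mouse embryonic stem cells (mESCs) before and after neural differentiation. They were chosen by gene symbol, and they make up 8 of the 24849 gene rows listed in each sample. RNA sequencing of 8 samples gave FPKM values, an expression level scaled for transcript length and library size, with 2 biological replicates each of wild type and Pcgf5-/- cells at day 0 and at day 6. The day 0 cells were undifferentiated mESCs of the MPI-II line, on a 129S2/SvPas background, kept on feeder cells in serum with LIF and the inhibitors CHIR99021 and PD0325901. The day 6 cells of both genotypes had been moved to N2B27, a serum-free medium that lets mESCs turn into neural cells. The Pcgf5-/- cells had been made with TALENs, nucleases that cut a chosen DNA site, and were picked as single colonies after drug selection. How many colonies stand behind the Pcgf5-/- samples is not given in the sources used here, so the knockout and the history of a colony cannot be told apart.

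LIN28A and LIN28B are RNA-binding proteins that block the maturation of let-7 microRNAs, and let-7 in turn represses growth genes through matching sites in their mRNAs. HMGA1 and HMGA2 are chromatin proteins that bind AT-rich DNA, IGF2BP1 binds and stabilises mRNAs, and TRIM71 is a ubiquitin ligase and mRNA repressor of stem cells. MYC and MYCN are transcription factors that drive ribosome production and proliferation, and MYCN is well known in embryonic neural progenitors.

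The mature let-7 microRNAs share bases 2 to 8, the seed that pairs with target mRNAs. The RefSeq table for GRCm38.p6 held 8 distinct let-7 mature sequences of the 5p arm, made from 10 gene copies, and all 8 carried the seed GAGGUAG. Shown here 5′ to 3′ with the seed in capitals are let-7a, the family member with the plain name, let-7d, whose first base is another, and let-7i, which differs from let-7a in its 3′ part.
let-7a-5p: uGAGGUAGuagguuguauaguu
let-7d-5p: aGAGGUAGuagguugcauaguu
let-7i-5p: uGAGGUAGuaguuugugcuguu

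The sequence that pairs with this seed, CTACCTC, was searched on the sense strand of the longest annotated 3′UTR of each gene (GENCODE vM1, NCBIM37, the same build as mm9). It stood in 6 of the 8 genes, whereas 8.81% of all 19915 3′UTRs held it at least once. Lin28b, Hmga2 and Igf2bp1 held 4 matches each, Lin28a and Trim71 held 2 each and Hmga1 held 1. None was present in the 466 bases of Myc or the 910 bases of Mycn, which says only that these letters were not in those windows. Long 3′UTRs hold a match more often: the share with at least 1 was 4.10% around the length of Myc and 34.5% around that of Igf2bp1. Among 3′UTRs of 80% to 125% of the gene's own length, 0.141% had at least as many matches as Hmga2, 0.263% as Igf2bp1, 0.282% as Lin28b, 0.830% as Trim71, 2.42% as Lin28a and 9.48% as Hmga1. The genes were chosen as known growth regulators, several of them as known let-7 targets, so these counts are a description. For each gene with a match, the one nearest to the stop codon is shown with its mm9 position, the 7 paired bases in capitals and 1 base after them. All lie in the 3′UTR exon, on the minus strand except for Hmga1.
Lin28a chr4:133561104-133561126: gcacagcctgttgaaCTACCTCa
Lin28b chr10:45100828-45100850: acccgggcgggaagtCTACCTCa
Trim71 chr9:114421590-114421612: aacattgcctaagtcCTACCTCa
Hmga1 chr17:27700222-27700244: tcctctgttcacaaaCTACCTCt
Hmga2 chr10:119801280-119801302: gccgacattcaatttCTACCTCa
Igf2bp1 chr11:95823092-95823114: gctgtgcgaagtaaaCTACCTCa

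A match followed by an A is known as the stronger kind of let-7 site. This was so for the match shown in 5 of the 6 genes, and for all matches of Lin28a and Trim71. In Hmga1 the only match was followed by another base.

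**Figure D1:**
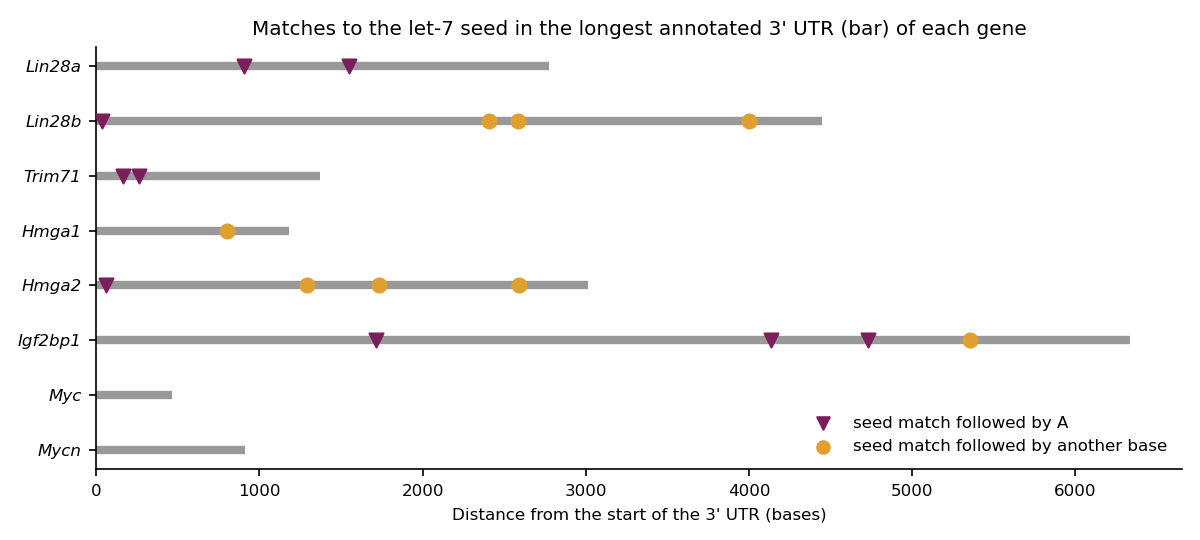
Positions of CTACCTC in the longest annotated 3′UTR of each of the 8 genes, in bases from the start of the 3′UTR. Bars are 3′UTRs, triangles are matches followed by A and circles are matches followed by another base; the match of Lin28b 36 bases into its 3′UTR and that of Hmga2 at 58 lie near the stop codon, and Myc and Mycn have none.

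The cells were first checked against markers and the targeted gene. The summed FPKM of 8 embryonic stem cell markers was 2151 to 2364 at day 0, 191 and 435 in wild type at day 6, and 1161 and 1253 in Pcgf5-/- at day 6. The summed FPKM of 8 neural progenitor markers was 11.7 to 15.6 at day 0, 290 and 303 in wild type at day 6, and 104 and 120 in Pcgf5-/- at day 6. Neuron markers (8 genes) summed to 161 to 216 FPKM at day 0. At day 6 they summed to 490 and 348 in wild type and to 179 and 160 in Pcgf5-/-. These sums thus differed between genotypes at day 6. In such bulk samples fewer cells of a type and less RNA per cell cannot be told apart. Feeder fibroblast markers (10 genes) summed to 190 to 301 FPKM in 3 of the 4 day 0 samples and to 712 in Pcgf5-/- day 0 replicate 2, which stands apart, against 29.8 to 131 at day 6. Primitive endoderm markers (8 genes) summed to 58.3 FPKM in wild type day 6 replicate 1 and to 1.90 to 17.9 in the other 7 samples. Without that replicate the rises in wild type were 2.41 for Lin28a, 3.19 for Lin28b and 2.24 for Hmga2 on the log2 scale (adjusted p = 0.00584, 0.000627 and 0.00150 in limma), and Hmga2 differed between genotypes at day 6 by -0.80 (adjusted p = 0.147 in limma). Pcgf5 itself was 5.18 and 3.63 FPKM in wild type and 1.28 and 1.84 in Pcgf5-/- at day 0, and 9.16 and 5.06 against 0.669 and 0.457 at day 6.

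All 8 genes passed the filter on low values, a mean above 1 FPKM in at least 1 condition, which 13214 genes passed. Changes are given as differences of log2(FPKM + 1) with their standard error (SE) from limma, fitted over all 8 samples. The adjusted p is that of limma after Benjamini-Hochberg correction over the 13214 genes, with 0.05 as the threshold. In counts of genes, rose and fell mean past this threshold.

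During neural differentiation of wild type cells, 4 of the 8 genes rose: Lin28a, Lin28b, Hmga2 and Igf2bp1. None of the 8 fell. Among all genes tested, 34.2% rose and 16.2% fell in wild type. The same 4 genes rose in Pcgf5-/- cells, where 21.9% of all genes rose and 10.4% fell. The median change of the 8 genes was 0.56 in wild type and 0.53 in Pcgf5-/-, beside medians of 0.22 and 0.13 over all genes tested. Scaling the samples by median-ratio size factors took 0.22 off the median of all genes in wild type and 0.15 in Pcgf5-/-. It also lowered the share of rises among all changed genes from 67.8% to 51.3% in wild type and from 67.9% to 52.6% in Pcgf5-/-, and quantile normalization gave 51.3% and 53.1%.

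**Figure D2:**
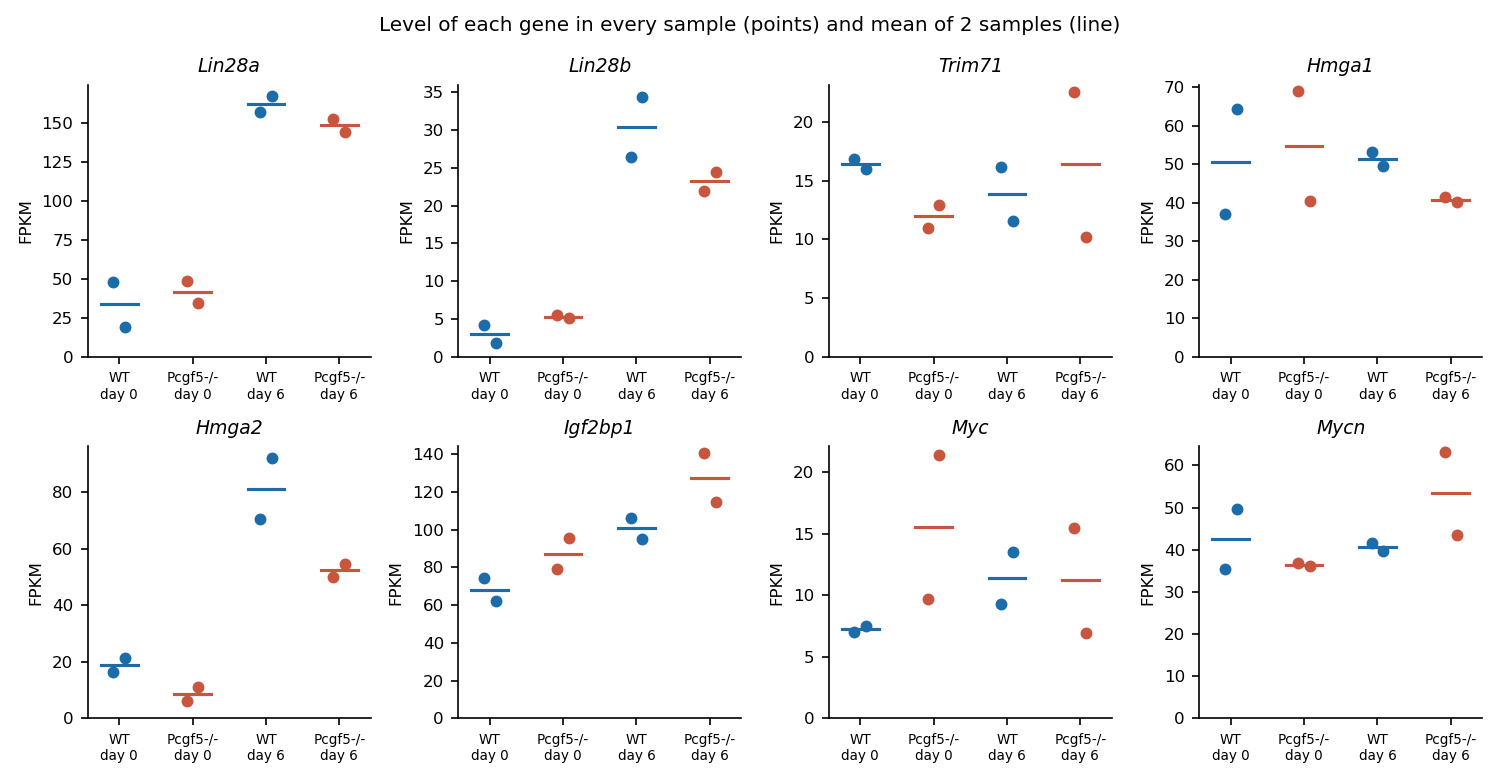
FPKM of the 8 genes in every sample, 1 panel per gene with its own axis from 0. Points are samples and lines are the means of 2 replicates; Lin28a, Lin28b and Hmga2 are higher in all 4 day 6 samples than in all 4 day 0 samples, and Trim71, Hmga1 and Myc overlap between most conditions.

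Lin28a (chr4:133559245-133574731, mm9) was 48.2 and 19.3 FPKM in wild type at day 0, 48.5 and 34.4 in Pcgf5-/- at day 0, 157 and 167 in wild type at day 6, and 153 and 144 in Pcgf5-/- at day 6. All day 6 samples lay above all day 0 samples, and wild type day 0 replicate 2 was the lowest. The mean rose 4.80-fold in wild type, from 33.8 ± 20.4 to 162 ± 7.11 (SD, n = 2), a log2 change of 2.37 with a 95% interval of 1.56 to 3.18 and an adjusted p of 0.000918 in limma. In Pcgf5-/- it rose 3.58-fold, from 41.4 ± 10.03 to 148 ± 5.89, a log2 change of 1.84 with an interval of 1.02 to 2.65 and an adjusted p of 0.00639 in limma. Lin28a was above 81.9% of the tested genes in wild type at day 0 and above 97.5% at day 6.

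Its paralog Lin28b (chr10:45096425-45190007) was 4.25 and 1.86 FPKM in wild type at day 0, 5.46 and 5.07 in Pcgf5-/- at day 0, 26.4 and 34.4 in wild type at day 6, and 21.96 and 24.4 in Pcgf5-/- at day 6. The 4 conditions did not overlap, in the order wild type day 0, Pcgf5-/- day 0, Pcgf5-/- day 6, wild type day 6 from low to high. Lin28b rose 9.95-fold in wild type, a log2 change of 3.01 (SE 0.28, adjusted p = 8.47e-05 in limma), the largest of the 8 genes. In Pcgf5-/- it rose 4.40-fold, a log2 change of 1.95 (adjusted p = 0.00184 in limma). The level of Lin28b stayed below that of Lin28a per length in every sample, 162 against 30.4 FPKM in the wild type day 6 means. Over the 8 samples the levels of the paralogs followed each other with r = 0.983 on the log2(FPKM + 1) scale, a description over samples that share the difference between days.

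Hmga2 (chr10:119798331-119913991) was 16.6 and 21.2 FPKM in wild type at day 0, 6.17 and 10.97 in Pcgf5-/- at day 0, 70.6 and 92.2 in wild type at day 6, and 50.2 and 54.6 in Pcgf5-/- at day 6. As with Lin28b, no condition overlapped another, but here the order was Pcgf5-/- day 0, wild type day 0, Pcgf5-/- day 6, wild type day 6. It rose 4.31-fold in wild type, a log2 change of 2.05 (SE 0.25, adjusted p = 0.000343 in limma), and 6.11-fold in Pcgf5-/-, a log2 change of 2.53 (adjusted p = 0.000389 in limma). The rises of Lin28a, Lin28b and Hmga2 passed the threshold in both genotypes under every one of the 18 alternative settings run for each.

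Igf2bp1 (chr11:95818478-95867258) was already high at day 0, at 74.1 and 62.3 FPKM in wild type and 79.0 and 95.4 in Pcgf5-/-. At day 6 it was 106 and 95.2 in wild type and 140 and 114 in Pcgf5-/-. The day 6 samples of each genotype lay above its day 0 samples, by 1.48-fold in wild type (log2 change 0.56, adjusted p = 0.0182 in limma) and 1.46-fold in Pcgf5-/- (0.54, adjusted p = 0.0322 in limma). These rises include the shift of all genes given above, and with median-ratio size factors they were 0.31 (adjusted p = 0.141 in limma) and 0.37 (adjusted p = 0.110 in limma). The call in Pcgf5-/- was lost as well with no FPKM minimum (adjusted p = 0.0618 in limma), no variance trend (0.0551) and only the compared groups (0.0519). The call in wild type was also lost without wild type day 0 replicate 2 (0.44, adjusted p = 0.106 in limma) or wild type day 6 replicate 1 (0.48, adjusted p = 0.0965 in limma), and that in Pcgf5-/- without Pcgf5-/- day 0 replicate 1 (0.41, adjusted p = 0.187 in limma) or Pcgf5-/- day 6 replicate 1 (0.39, adjusted p = 0.157 in limma).

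The other 4 genes did not pass the test between days in either genotype. Trim71 (chr9:114420391-114473487) was 16.9 and 16.0 FPKM in wild type at day 0, 10.97 and 12.9 in Pcgf5-/- at day 0, 16.1 and 11.6 in wild type at day 6, and 22.6 and 10.2 in Pcgf5-/- at day 6. The day 6 samples of each genotype overlapped its day 0 samples. The log2 change was -0.24 in wild type, with an interval of -0.98 to 0.49, and 0.33 in Pcgf5-/-, with an interval of -0.40 to 1.07.

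Hmga1 (chr17:27693519-27700617) was 37.0 and 64.4 FPKM in wild type at day 0, 69.1 and 40.5 in Pcgf5-/- at day 0, 53.2 and 49.5 in wild type at day 6, and 41.4 and 40.3 in Pcgf5-/- at day 6. Replicates at day 0 differed by more than the means of any pair of conditions, and the log2 change between days was 0.07 in wild type (interval -0.60 to 0.73) and -0.37 in Pcgf5-/- (interval -1.03 to 0.30). How the counting treated fragments shared with near-identical sequences is not given in the sources used here, so the values of Hmga1 are uncertain. The sign of the wild type value turned, to -0.18, with median-ratio size factors.

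Myc (chr15:61816896-61821916) was 7.05 and 7.49 FPKM in wild type at day 0, 9.71 and 21.4 in Pcgf5-/- at day 0, 9.27 and 13.5 in wild type at day 6, and 15.5 and 6.91 in Pcgf5-/- at day 6. The highest value, 21.4, was in the sample with the high feeder marker sum of 712 FPKM, and the part of feeder RNA in it was not tested. Its log2 change was 0.56 in wild type (interval -0.39 to 1.52, adjusted p = 0.285 in limma) and -0.44 in Pcgf5-/- (interval -1.39 to 0.51, adjusted p = 0.453 in limma). Mycn (chr12:12942899-12948642) was 35.5 and 49.6 FPKM in wild type at day 0, 36.8 and 36.2 in Pcgf5-/- at day 0, 41.6 and 39.7 in wild type at day 6, and 63.2 and 43.6 in Pcgf5-/- at day 6. Mycn was above Myc in every sample per length, with day 0 wild type means of 42.6 ± 9.97 against 7.27 ± 0.310 FPKM (SD, n = 2). Its log2 change was -0.05 in wild type (interval -0.52 to 0.42) and 0.52 in Pcgf5-/- (interval 0.04 to 0.99, adjusted p = 0.0877 in limma). Without Pcgf5-/- day 6 replicate 2, the values in Pcgf5-/- were 0.78 for Mycn (adjusted p = 0.0436 in limma) and 0.87 for Trim71 (adjusted p = 0.0449 in limma), both then past the threshold.

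**Figure D3:**
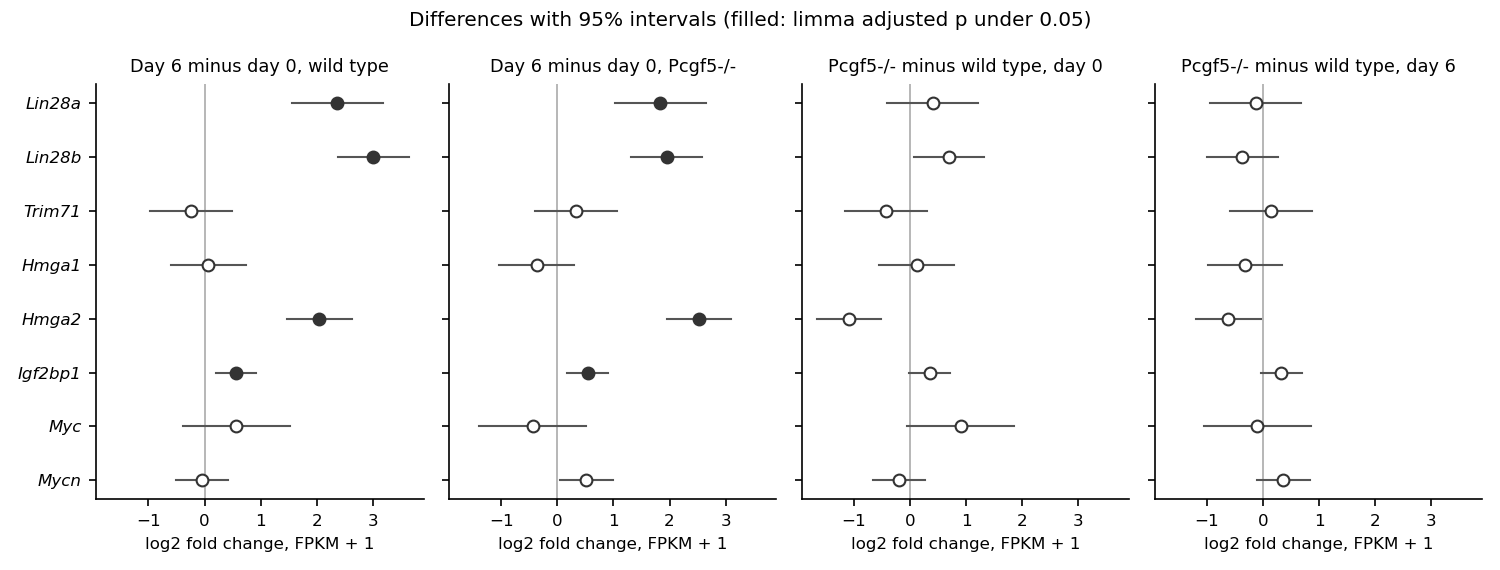
Log2 changes of the 8 genes between days in each genotype and between genotypes at each day, on the log2(FPKM + 1) scale with 95% limma intervals; filled points have an adjusted p under 0.05. Between days Lin28a, Lin28b, Hmga2 and Igf2bp1 are filled in both genotypes, and between genotypes none is.

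In undifferentiated cells, the comparison of Pcgf5-/- with wild type asks whether loss of Pcgf5 alters these genes before differentiation. None of the 8 passed the threshold in limma, and 0.333% of all genes did (44 genes). Of the 8, Lin28b and Hmga2 had an unadjusted p under 0.05, a level at which the share of all genes was not counted. The groups did not overlap for 5 of the 8 genes, beside 47.9% of all genes, with Lin28b, Igf2bp1 and Myc higher and Trim71 and Hmga2 lower in both Pcgf5-/- samples. The median difference was 0.23 for the 8 genes and 0.11 for all genes, and median-ratio size factors took 0.11 and quantile normalization 0.12 off the latter. Under these the 44 calls, of which 86.4% were higher, became 2 and 3, with 0% higher.

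Hmga2 differed most of the 8 at day 0: its mean was 2.20-fold higher in wild type, 18.9 ± 3.27 against 8.57 ± 3.40 FPKM (SD, n = 2). The log2 difference was -1.09 (SE 0.25, interval -1.67 to -0.52, unadjusted p = 0.00224, adjusted p = 0.0816 in limma). The Pcgf5-/- sample with the high feeder marker sum had the higher Hmga2 of its pair, 10.97 FPKM, still below both wild type samples. Without that sample the difference was -1.46 (adjusted p = 0.164 in limma).

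Lin28b was 1.72-fold higher in Pcgf5-/- at day 0, a log2 difference of 0.69 (interval 0.06 to 1.33, adjusted p = 0.248 in limma), at levels of 1.86 to 5.46 FPKM. Igf2bp1 was 1.28-fold higher, a log2 difference of 0.35 (interval -0.01 to 0.71, adjusted p = 0.304 in limma). Igf2bp1 lies on chromosome 11, where the median difference of 1086 genes between Pcgf5-/- and wild type was 0.48 at day 0 and 0.38 at day 6. Chromosome 6 stood at 0.41 and 0.37. The medians of the other chromosomes ran from 0.04 to 0.12 at day 0, and from -0.06 to 0.03 for day 6. The values of Igf2bp1 at both days were thus under the median of its chromosome. Myc was 2.14-fold higher in Pcgf5-/- by its mean, with a log2 difference of 0.91 (interval -0.05 to 1.86, adjusted p = 0.310 in limma) that includes the value of 21.4 FPKM. Without that sample the log2 difference was 0.37 (adjusted p = 0.800 in limma). For Lin28a, Trim71, Hmga1 and Mycn the log2 differences were 0.40, -0.43, 0.11 and -0.20, with intervals that include 0. That of Hmga1 turned to -0.04 with median-ratio size factors.

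At day 6 again none of the 8 genes passed the threshold between genotypes in limma, while 16.6% of all genes did (9.57% higher and 7.05% lower in Pcgf5-/-). Hmga2 alone of the 8 had an unadjusted p under 0.05, again with the share of all genes at that level not counted. Lin28a, Lin28b, Hmga1 and Hmga2 were lower in both Pcgf5-/- samples than in both wild type samples, and Igf2bp1 and Mycn were higher in both. Such separation held for 6 of the 8 genes and for 62.2% of all genes. The median difference of the 8 genes was -0.11, beside 0.02 for all genes.

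Hmga2 was 1.55-fold higher in wild type at day 6, at 81.4 ± 15.2 against 52.4 ± 3.09 FPKM (SD, n = 2). The log2 difference was -0.62 (SE 0.25, interval -1.19 to -0.04, unadjusted p = 0.0386, adjusted p = 0.130 in limma). After quantile normalization it was -0.76, past the threshold with an adjusted p of 0.0485 in limma. Lin28a differed by -0.13 (interval -0.94 to 0.69) and Lin28b by -0.37 (interval -0.999 to 0.27), which leaves differences of up to these bounds undetermined.

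Igf2bp1 was 1.26-fold higher in Pcgf5-/- at day 6, a log2 difference of 0.33 (interval -0.03 to 0.69, adjusted p = 0.187 in limma) beside the chromosome 11 median of 0.38. Mycn was 1.31-fold higher, a log2 difference of 0.36 (interval -0.11 to 0.83, adjusted p = 0.262 in limma). Hmga1 differed by -0.32 (interval -0.99 to 0.34), Trim71 by 0.15 (interval -0.59 to 0.88) and Myc by -0.10 (interval -1.05 to 0.86). The 2 Pcgf5-/- replicates of Trim71, 22.6 and 10.2 FPKM, lay on both sides of the wild type pair, and so did those of Myc, 15.5 and 6.91.

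Whether the genotype effect changed between the days was tested as the difference of the 2 effects. None of the 8 genes passed in limma, and 3.09% of all genes did, 43.4% of them upward against 57.7% after quantile normalization. Lin28b came nearest, the only one of the 8 with an unadjusted p under 0.05, with -1.06 (interval -1.95 to -0.17, unadjusted p = 0.0256, adjusted p = 0.160 in limma): its Pcgf5-/- samples were above wild type at day 0 and below at day 6. Hmga2 was below wild type at both days, and its 2 differences were apart by 0.48 (interval -0.33 to 1.29, adjusted p = 0.452 in limma). For Igf2bp1 the difference of effects was -0.02 (interval -0.53 to 0.49).

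Of the paralogs of these genes, Mycl and Igf2bp2 passed the threshold between genotypes at day 6 and Igf2bp3 did not. Mycl (chr4:122673174-122679723), the third MYC family member, was 6.42 and 7.34 FPKM in wild type at day 0, 3.82 and 3.89 in Pcgf5-/- at day 0, 31.1 and 35.5 in wild type at day 6, and 12.2 and 14.4 in Pcgf5-/- at day 6. It rose between days in wild type (log2 change 2.12, adjusted p = 3.51e-05 in limma) and in Pcgf5-/- (1.56, adjusted p = 0.000473 in limma). At day 6 wild type was 2.50-fold above Pcgf5-/-, a log2 difference of -1.26 (SE 0.16, adjusted p = 0.00473 in limma), and these calls held in every alternative run. At day 0 the difference was -0.70 (adjusted p = 0.0817 in limma).

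Igf2bp2, an mRNA-binding paralog of Igf2bp1 on chromosome 16, was 45.6 and 46.0 FPKM in wild type at day 0, 34.4 and 38.3 in Pcgf5-/- at day 0, 69.7 and 73.0 in wild type at day 6, and 50.4 and 44.9 in Pcgf5-/- at day 6. Both Pcgf5-/- samples were below both wild type samples at each day, with a log2 difference of -0.57 at day 6 (adjusted p = 0.0179 in limma) and -0.33 at day 0 (adjusted p = 0.209 in limma). The day 6 call was lost when any 1 of the 4 day 6 samples was left out. Igf2bp3, on chromosome 6, was 37.7 and 30.9 FPKM in wild type at day 0, 53.6 and 54.1 in Pcgf5-/- at day 0, 95.3 and 100.4 in wild type at day 6, and 82.1 and 98.1 in Pcgf5-/- at day 6. It rose in both genotypes, by 1.49 in wild type (adjusted p = 9.35e-05 in limma) and 0.73 in Pcgf5-/- (adjusted p = 0.00635 in limma). Between genotypes the difference was 0.64 at day 0 (adjusted p = 0.0758 in limma), beside the median of 0.41 for its chromosome, and -0.12 at day 6. Over all 4 conditions, Igf2bp1 was thus above wild type in Pcgf5-/- at both days by its mean, and Igf2bp2 was below at both. Igf2bp3 was above at day 0 and overlapped at day 6. Of these differences only that of Igf2bp2 at day 6 passed the threshold. Those of Igf2bp1 were under the median of chromosome 11 at both days.

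**Figure D4:**
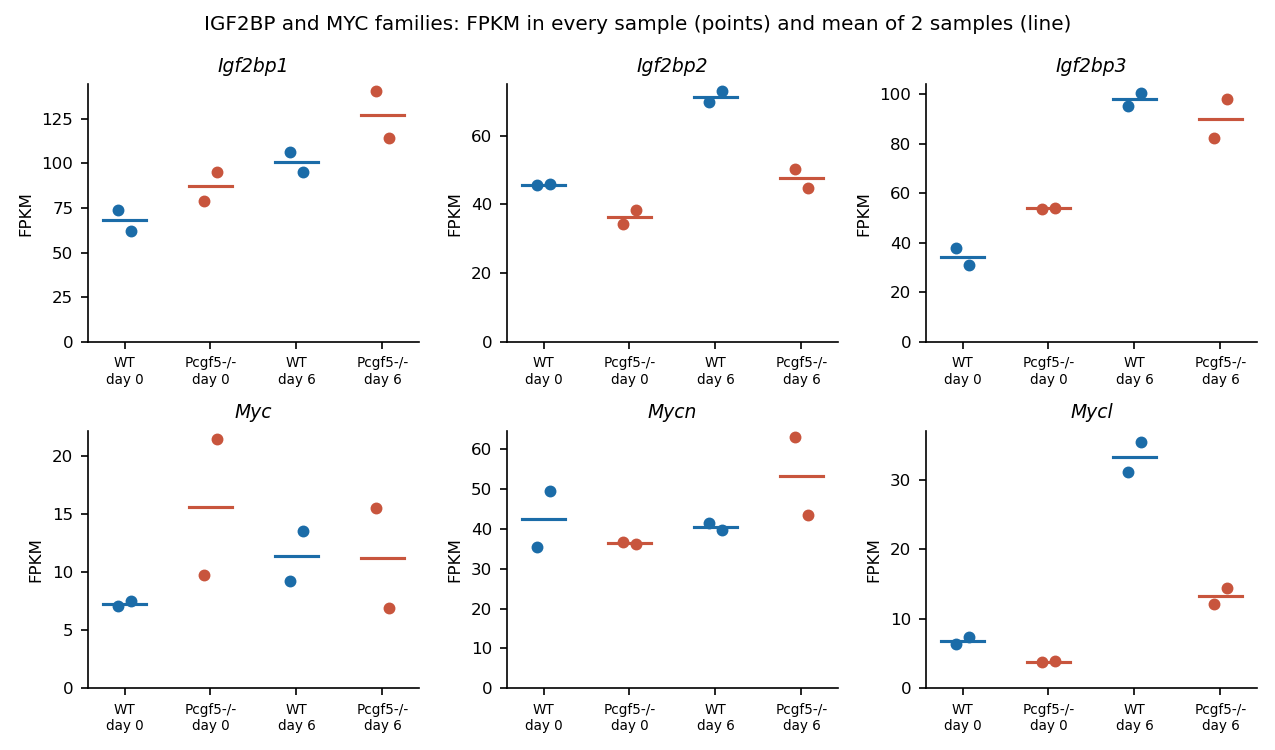
FPKM of Igf2bp1, Igf2bp2, Igf2bp3, Myc, Mycn and Mycl in every sample, each panel with its own axis from 0. Points are samples and lines are the means of 2 replicates; at day 6 Mycl is 31.1 and 35.5 in wild type against 12.2 and 14.4 in Pcgf5-/-.

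The let-7 route around LIN28 was followed through 10 tested genes of let-7 processing. In wild type, where 34.2% of all genes rose, 5 rose and none fell: Ago1, an effector protein of microRNAs, by 1.42, Dis3l2, the nuclease that degrades let-7 precursors tagged through LIN28, by 0.83, Zcchc11, the uridylyl transferase that adds the tag, by 0.82, Dicer1, which cuts precursors, by 0.71, and Dgcr8, of the nuclear processing complex, by 0.41. In Pcgf5-/-, beside 21.9% of all genes, 4 rose and none fell, with Ago1 at 1.42, Zcchc11 at 1.05, Dicer1 at 0.63 and Dgcr8 at 0.53. Ago2, a paralog of Ago1 on the list, was 15.3 and 21.4 FPKM in wild type at day 0 and 10.5 and 6.52 at day 6. Its log2 change there was -1.04, short of the threshold (adjusted p = 0.0791 in limma), and in Pcgf5-/- its days overlapped. The calls of Dicer1 in Pcgf5-/- and Dgcr8 in wild type were lost in 7 and 5 of 18 alternatives. The median change of the 10 was 0.36 and 0.46, beside 0.22 and 0.13 for all genes. Between genotypes 0 of the 10 passed in limma at day 0 or at day 6, beside 0.333% and 16.6% of all genes. At an unadjusted p under 0.05 in limma stood 0 and 1 of the 10, with the share of all genes at that level not counted. The let-7 genes themselves were not measured: 11 let-7 rows are listed at 0 in every sample, with loci under 300 bp, and the libraries were made from polyadenylated RNA, which leaves out mature microRNAs.

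Of 19 known let-7 targets outside the 8 genes, 18 were tested. In wild type 13 rose, beside 34.2% of all genes, and none fell, with a median change of 0.87. Ccnj, a cyclin, rose by 2.65, Ccnd2, the G1 cyclin D2, by 2.60, and E2f6, a repressor of the E2F family, by 2.1. Cdc25a, Cdc34 and Cdk6 were lower in both wild type day 6 samples than at day 0, short of the threshold. Cdk6 changed most of these, by -0.73 (adjusted p = 0.0765 in limma). In Pcgf5-/- 8 rose, beside 21.9% of all genes, and none fell, with a median of 0.43, Ccnj at 1.41, Arid3b, a DNA-binding protein, at 1.40 and Ccnd2 at 1.36, a call lost in 13 of 18 alternatives. At day 6, 4 of the 18 were lower in Pcgf5-/- and none higher (median -0.17), beside 7.05% of all genes lower: Tgfbr1, a TGF-beta receptor, by -0.98, Ccnj by -0.94, Igf2bp2 by -0.57 and E2f5 by -0.56. Tgfbr1 was 35.1 and 25.1 FPKM in wild type against 16.3 and 13.0 in Pcgf5-/-, with no overlap. At day 0 none of the 18 passed in limma, beside 0.333% of all genes. An unadjusted p under 0.05 was found for 5 in limma, but the share of all genes at that level was not counted. The calls of Ccnj and Igf2bp2 at day 6 were lost without any 1 of the day 6 samples, and that of Tgfbr1 without 3 of the 4. The call of E2f5 was lost in 8 of 18 alternatives.

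Of 11 MYC network partners, the proteins that pair or compete with MYC, 4 rose and 2 fell in wild type, shares near the 34.2% and 16.2% of all genes. Mycl rose by 2.12, Mxd4, a repressor that competes with MYC for its partner MAX, by 1.75 and Mlxip, a glucose-responsive factor, by 0.83, while Mxi1, of the same repressor family as Mxd4, fell by 0.77 and Mlx, the partner of MLXIP, fell by 0.50. The median of the 11 was 0.41. In Pcgf5-/-, beside 21.9% of all genes, 2 rose, Mycl by 1.56 and Mxd4 by 0.83, the latter lost in 11 of 18 alternatives. None fell, beside 10.4% of all genes. At day 6 Mlx was higher in Pcgf5-/- by 0.79 and Mycl lower by the value above, and none of the other 9 passed. Of all genes, 9.57% were called higher and 7.05% lower in that comparison. Mlx lies on chromosome 11, with the median of 0.38 given above.

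Of 22 known MYC targets, 1 rose and 8 fell in wild type, beside 34.2% and 16.2% of all genes, with a median of -0.34. Ldha, lactate dehydrogenase, fell by 2.13, Tert, the catalytic part of telomerase, fell by 0.85 and Polr1b, a subunit of RNA polymerase I, fell by 0.62. Nme1 was the one that rose, by 0.44, a call lost in 9 of 18 alternatives. In Pcgf5-/- 2 of the 22 fell, Ldha by 1.70 and Rrs1, a ribosome assembly factor, by 0.67, a share near the 10.4% of all genes that fell, and none rose. At day 6, 5 of the 22 were higher in Pcgf5-/- and none lower (median 0.21), beside 9.57% of all genes higher. They were Tert (0.62), Npm1 (0.54) and Ncl (0.43), both nucleolar proteins, Ppan (0.54), a ribosome assembly factor, and Eif5a (0.45), a translation factor. Tert was 1.61 and 1.44 FPKM in Pcgf5-/- against 0.656 and 0.627 in wild type at day 6, beside 1.81 to 2.07 in the 4 day 0 samples, and its call was lost in 11 of 17 alternatives. Npm1 and Eif5a, 2 of the 5, lie on chromosome 11, with its median of 0.38. The calls of Npm1, Ppan, Ncl and Eif5a were lost when any 1 of the 4 day 6 samples was left out, and over all 18 alternatives they were lost in 7, 7, 11 and 14.

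Stem cell factors are given for comparison, and whether they act on Lin28a or Mycn was not tested. Of 8, 7 fell in wild type, beside 16.2% of all genes, with Esrrb at -4.24, Nanog at -3.22 and Pou5f1 at -2.57. In Pcgf5-/- 4 fell, beside 10.4% of all genes, and Tcf7l1 rose by 0.74, beside 21.9%. At day 6, 6 of the 8 were higher in Pcgf5-/- and none lower, beside 9.57% of all genes higher, with differences of 2.40 for Esrrb, 2.16 for Nanog and 2.03 for Pou5f1. Of the 6, Nanog and Tcf7l1 lie on chromosome 6 and Stat3 on chromosome 11, whose medians at day 6 were 0.37 and 0.38. Nanog was 144 and 139 FPKM in Pcgf5-/- against 43.0 and 22.2 in wild type at day 6. Beside these, Lin28a at the same day was 153 and 144 in Pcgf5-/- against 157 and 167, and Mycn was 63.2 and 43.6 against 41.6 and 39.7.

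For each of the 8 genes, the 2 genes whose log2(FPKM + 1) correlated best over the 8 samples were listed. They were Ralgps2 (r = 0.991) and Fads1 (0.990) for Lin28a, Sgce (0.998) and Fam83h (0.998) for Lin28b, and Cep250 (0.994) and Tgif2 (0.987) for Hmga2. They were Adcy7 (0.980) and Srxn1 (0.977) for Igf2bp1, Kifc1 (0.953) and Zfp638 (0.946) for Mycn, and Rbm38 (0.940) and Akap13 (0.898) for Myc. They were Il6st (0.936) and Prrc2c (0.932) for Trim71, and Rps28 (0.893) and Deb1 (0.878) for Hmga1. These values were picked as the highest of 13214 genes over 8 samples that share the difference between days, and they carry no test.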

How the data were processed

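RNA-seq of 8 samples was used, grouped by the labels into 2 genotypes and 2 days with 2 replicates each. The authors trimmed adapters and low-quality bases, discarded short reads, reads with many undetermined bases and identical duplicate reads, aligned to mm9 with TopHat2 (2.0.4) and computed FPKM per gene with Cufflinks (2.1.1), both versions per the submitters' processing notes. The gene annotation is not given in the sources used here. The deposited FPKM values are scaled for library size and gene length. Discarding identical reads lowers the most abundant transcripts. The files hold no counts, so the depth behind a value is unknown and no counting interval is given.

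The files list 24849 genes, 5057 of them at 0 in all samples and 1381 with a locus under 300 bp. Values were taken as log2(FPKM + 1), so log2 changes are on that scale and understate the change of low genes, while folds are ratios of mean FPKM. The 13214 genes with a mean FPKM above 1 in at least 1 condition were fitted with limma 3.58.1 in R 4.3.3, with 1 mean per condition over all 8 samples, a variance trend and no replicate block. Benjamini-Hochberg adjustment was made over all tested genes in each contrast. The fit was tested on simulated data. Intervals are 95% intervals of limma for single genes. The share of all genes with an unadjusted p under 0.05 was not counted, so counts at that level have no reference. Replicates are described as biological. The spread behind a p-value comes from the 2 samples of every condition, pooled over conditions for each gene. It is drawn towards a trend over all tested genes, so it is not the spread of the compared conditions alone.

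The 8 genes and the pathway lists were chosen with earlier results of these data known. Named were the 8 genes, their paralogs, up to 3 genes of each list past the threshold per direction and contrast with the largest change, and the 2 best correlated genes of at least 300 bp for each member. Ncl, Eif5a, E2f5 and Dgcr8 were named beyond this where a list's calls were given in full, chosen after their values were seen. Alternatives were pseudocounts of 0.1 and 5, no FPKM minimum or a minimum of 5, median-ratio size factors, quantile normalization, replicate blocks, no variance trend, a fit of the compared groups only and each sample left out. A gene of the let-7 target list and a gene row are not reported here. Mature let-7 sequences are from RefSeq (GRCm38.p6), and 3′UTRs from GENCODE vM1 on NCBIM37. Python 3.11.15 was used for sequences and figures.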

Additional observations from a re-analysis of the deposited data

Results flagged for a closer look

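Among the pathway genes named, 4 had a genotype effect at day 6 that differed from that at day 0 in limma's test of the difference. They were 2 of the 18 tested let-7 targets and 2 of the 8 stem cell factors, beside 3.09% of all genes. No gene of the other pathway lists passed. Passing this test was itself a ground for naming a gene, so the count among named genes is no result. For Ccnj, a cyclin and known let-7 target, the difference of the effects on the log2 scale was -1.24 (adjusted p = 0.0435 in limma), from 1.12 and 1.27 FPKM in wild type and 1.61 and 1.82 in Pcgf5-/- at day 0 to 13.8 and 11.9 against 6.54 and 5.90 at day 6. For E2f6, an E2F repressor and known let-7 target, it was -0.91 (adjusted p = 0.0426 in limma), from 7.19 and 7.18 against 12.3 and 12.2 FPKM at day 0 to 34.6 and 33.7 against 30.4 and 28.4 at day 6. For Esrrb, an orphan nuclear receptor of naive stem cells, it was 2.29 (adjusted p = 0.0141 in limma), with 7.77 and 5.45 FPKM in wild type against 41.7 and 35.8 in Pcgf5-/- at day 6. For Nanog, on chromosome 6, it was 1.88 (adjusted p = 0.0396 in limma). These calls were lost in 10 (Ccnj), 11 (E2f6), 4 (Esrrb) and 8 (Nanog) of the 17 alternatives run for each.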

How the results depend on the processing

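With 2 samples per condition, the counts of calls over all genes and the smaller changes of the members moved between settings. The rises of Lin28a, Lin28b and Hmga2 between days kept their direction and call under every alternative run, and 4 of the 8 genes rose in each genotype under most, with a range of 3 to 4 in wild type and 3 to 6 in Pcgf5-/- when 1 sample was left out. Between genotypes no member passed in limma at day 0, day 6 or in the difference of the effects when 1 sample was left out (0 to 0 each), and Hmga2 at day 6 passed after quantile normalization (1 member).

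Over all genes, 44 were called between genotypes at day 0, and this count was 7 with a pseudocount of 5, 6 with no FPKM minimum, 102 with a mean FPKM over 5, 2 with median-ratio size factors, 3 after quantile normalization, 2 with no variance trend and 0 with only the compared groups. The 408 calls for the difference of effects became 251 with a pseudocount of 0.1 and 86 with no FPKM minimum. Leaving out 1 sample gave 1 to 22 calls at day 0, 297 to 1977 at day 6 (297 without Pcgf5-/- replicate 1, 502 without wild type replicate 2, 921 without Pcgf5-/- replicate 2 and 1173 without wild type replicate 1 of day 6), 2367 to 4147 between days in Pcgf5-/-, 4702 to 6535 in wild type and 4 to 347 for the difference of effects. The cause was not tested, beyond the fewer samples.

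Small changes turned sign. Hmga1 was -0.0411 with median-ratio size factors and -0.00299 after quantile normalization at day 0, and -0.18 with median-ratio size factors between days in wild type, and the difference of effects for Igf2bp1 was 0.0653 with median-ratio size factors. With 1 sample left out, Hmga1 ranged from -0.28 to 0.50 at day 0, from -0.32 to 0.46 between days in wild type and from -0.745 to 0.0111 in Pcgf5-/-. Lin28a ranged from -0.23 to 1.04 at day 0 and from -1.17 to 0.11 in the difference of effects. Myc ranged from -0.63 to 0.43 at day 6 and from -0.972 to 0.0928 between days in Pcgf5-/-. Mycn ranged from -0.434 to 0.0367 at day 0 and from -0.28 to 0.19 between days in wild type. Trim71 ranged from -0.39 to 0.68 at day 6 and from -0.20 to 0.87 between days in Pcgf5-/-. The difference of effects for Igf2bp1 ranged from -0.17 to 0.13, and Igf2bp3 at day 6 from -0.249 to 0.00396.

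The replicate numbers do not pair the samples by the labels. The paper's methods mention pairing of Pcgf5-/- with wild type samples for fold changes, but do not say which samples form a pair. The main fit used no pairing. Replicate differences of wild type and Pcgf5-/- correlated with r = 0.10 at day 0 and 0.39 at day 6, and across days with -0.08 to -0.02. With 1 replicate block for both days, 1 gene was called at day 0, and with a replicate block for each day 282 were called at day 0 and 1167 for the difference of effects. Hmga2 then passed in limma between genotypes, as 1 member at day 0 (adjusted p = 0.0443 with the block per day), and as 1 member at day 6 under either block, with adjusted p-values of 0.0410 (1 block) and 0.0292 (block per day). The block changed no other call of the 8 genes.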
